A study of Mus musculus with 9 samples.

Results

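The 8 genes described here encode the parts of the B cell receptor and of antibodies. Cd79a and Cd79b encode the signalling chains of the B cell receptor, Ms4a1 encodes the B cell surface protein CD20, and Ighm, Ighd and Igha encode the constant parts of the IgM, IgD and IgA heavy chains. Igkc encodes the constant part of the kappa light chain, and Jchain encodes the joining chain that links antibodies into polymers. They were chosen by name, as the genes to which GENCODE release 21 for mouse assigns the transcripts, and the values of all transcripts of a gene were summed. All 8 were found among the 45155 genes of the mRNA and other noncoding RNA tables. Of these genes, 23835 had a mean of at least 0.1 FPKM (a level per kilobase of transcript, corrected for sequencing depth) over the libraries and were tested. That filter kept 7 of the 8 genes, and Ms4a1, with a mean of 0.0981 FPKM, is given as values with no test.

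Total RNA of the trigeminal ganglion (TG), which holds the cell bodies of the sensory neurons of the face and jaw, was sequenced in 9 libraries. All mice were wild-type (WT) males of the C57BL/6 strain, aged 8 weeks, and received a unilateral injection of 10 µl into the temporomandibular joint (TMJ). The saline group (replicates 1 to 3) received saline and carries the label day 3. The CFA3D group (replicates 1 to 3, day 3) and the CFA6D group (replicates 4 to 6, day 6) received complete Freund's adjuvant (CFA) at 5 mg/ml, an emulsion of oil and killed mycobacteria that inflames the joint. Each library was a pool of TG punches from 3 mice, so that n = 3 pools per group throughout and no value belongs to 1 animal. No saline library is labelled day 6, so the comparison of CFA6D with saline also spans different days. The question addressed is whether B cell and antibody transcripts of the TG differ after TMJ inflammation.

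A B cell carries its antibody on the surface as a receptor. The heavy and light chains bind antigen there, and the Cd79a and Cd79b chains carry the signal into the cell. Naive B cells make IgM and IgD from a single long heavy chain transcript, and after class switching a cell makes another class, such as IgA. Each heavy chain gene is read in a membrane form, which ends in a hydrophobic anchor, and in a secreted form, which lacks it and predominates in plasma cells. Plasma cells release IgM and IgA as polymers held together by the J chain. In nervous tissue B cells are known mainly from the meninges and the blood.

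The membrane and secreted forms share most of their coding sequence, and only their ends tell them apart. The coding ends that are particular to each form of Ighm and Igha are shown because the results below divide by form. They were read from GRCm38 on the minus strand and are written 5′ to 3′. Capitals mark the longest run of bases that Ighm and Igha share within the same form. It had 11 bases in the membrane form and 10 bases in the secreted form. In the secreted form another shared run, tgatcatgtc, also had 10 bases, and only the earlier run is in capitals.
Ighm-202, membrane form, chr12:113418829-113419068, 2 exon stretches joined: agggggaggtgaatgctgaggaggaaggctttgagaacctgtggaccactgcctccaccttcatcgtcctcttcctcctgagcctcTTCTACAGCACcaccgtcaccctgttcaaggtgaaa
Igha-202, membrane form, chr12:113256204-113256397: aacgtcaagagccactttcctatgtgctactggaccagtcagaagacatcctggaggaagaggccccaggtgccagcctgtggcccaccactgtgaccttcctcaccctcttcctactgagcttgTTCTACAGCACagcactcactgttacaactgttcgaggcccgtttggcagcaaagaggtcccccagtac
Ighm-201, secreted form, chr12:113420870-113420928: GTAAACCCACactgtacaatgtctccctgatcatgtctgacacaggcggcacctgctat
Igha-201, secreted form, chr12:113258771-113258829: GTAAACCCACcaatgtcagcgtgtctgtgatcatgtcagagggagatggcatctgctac
The ends held 122 bases for the Ighm membrane form, 194 for the Igha membrane form and 59 for each secreted form. By contrast 1305 coding bases were common to both forms of Ighm and 972 to both forms of Igha, so most of the coding sequence fits either form and the split between the forms rests on the quantification by the authors.

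The FPKM values were scaled to about 30000000 to 42200000 read pairs per library, as estimated from the smallest steps of the values. A single read pair therefore added 0.0237 to 0.0333 FPKM to a transcript 1 kb long. These are the pairs behind the scaling, and the paper reports more clean reads than they would hold. The 14 neuron, satellite glia and Schwann cell markers used to check the tissue, such as Tubb3, Calca, Prph and Mbp, summed to 2360 to 2799 FPKM in every library, and none of them was called in any comparison. CFA6D replicate 6 stood apart from the other libraries. On the first principal component of all tested genes, which held 21.02% of the variance, it lay at 82.8 and the other 8 libraries lay between -29.4 and 3.80. All 14 neutrophil and marrow granule genes of a fixed list (S100a8, Ngp, Mpo and others) were highest in it, with a sum of 2990 FPKM there and of 32.5 to 158 FPKM in the others. Of the 8 erythroid genes analysed, Slc4a1 and Klf1 were highest in it, while the sum of the list, mostly haemoglobin RNA, was 2844 FPKM there and 1697 to 5814 FPKM elsewhere. Of the 14 T cell genes, only Cd2 was highest in it. Klf1 and Cd2 are named because they complete these counts. The part of these cells or of this library in the results below was not tested, so the comparisons of genes, lists and ratios with CFA6D are given with and without it.

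All 8 genes were highest in CFA6D replicate 6. The level there was 1.39 times the second highest library for Ighm and 7.30 times for Igha, with the other genes in between. For scale, 15.9% of all tested genes were highest in that library. The summed level of the 8 genes was 70.9 FPKM in CFA6D replicate 6, against 12.8 and 16.4 FPKM in CFA6D replicates 4 and 5, 11.4 to 22.4 FPKM in the saline libraries and 10.5 to 19.8 FPKM in the CFA3D libraries. The 2 other CFA6D libraries therefore lay within the range of the saline libraries for this sum. Over the 9 libraries the log2 levels of the 7 tested genes correlated with a median Pearson's r of 0.68 over 21 pairs of genes (0.38 to 0.86). With CFA6D replicate 6 left out, the median r was 0.03 (-0.62 to 0.60). These correlations are descriptions over the same libraries, which share depth and tissue content. In bulk tissue, fewer cells of a type and less RNA per cell cannot be told apart.

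**Figure D1:**
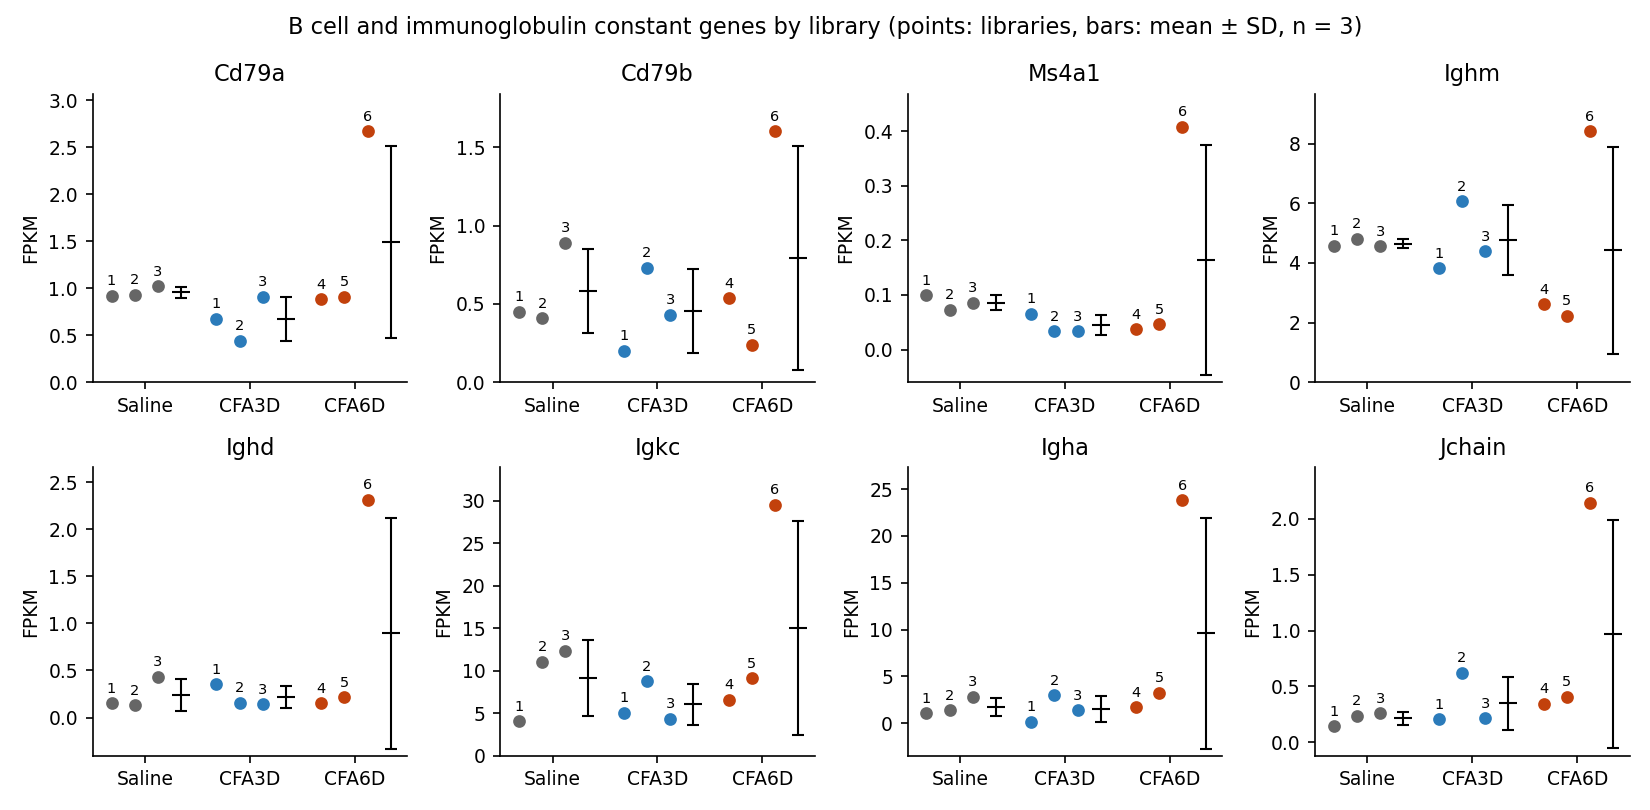
Levels of the 8 genes in FPKM (vertical axes, linear) in each library, with 1 panel per gene and the libraries numbered by replicate. Points are libraries and bars are the mean ± SD of 3 libraries. In every panel CFA6D replicate 6 is the highest point, and CFA6D replicates 4 and 5 lie near the other groups, except for Ighm, where they are the lowest of the 9.

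The differences were tested in limma on the scale of log2(FPKM + 0.1), and a gene was called where the unadjusted p was under 0.05 and the log2 fold change reached 1 in either direction. In CFA3D against saline, 0 of the 7 genes were called, where 0.944% of all tested genes were called. None had an unadjusted p under 0.05 either (4.41% of all genes did), and the smallest Benjamini-Hochberg adjusted p was 0.999. In CFA6D against saline, Jchain was called higher, so that 1 of 7 genes was called where 1.34% of all tested genes were called, and its adjusted p was 0.517. No other of the 7 genes had an unadjusted p under 0.05 there (9.63% of all genes). In CFA6D against CFA3D, 0 of 7 were called, with 1.35% of all tested genes called, and Cd79a alone had an unadjusted p under 0.05, as had 6.78% of all genes. The median log2 fold change of the 7 genes was -0.35 on CFA3D and 0.55 on CFA6D against saline, beside 0.05 and 0.02 over all tested genes. Without CFA6D replicate 6 the median on CFA6D against saline was -0.09 and 0 of 7 genes were called, with 1.72% of all tested genes called. Against CFA3D the median was 0.93 with and 0.20 without that library, and 0 of 7 were called in either case (1.57% of all genes without it). The libraries of CFA3D and saline did not overlap for 1 of the 7 genes on the lower side (Cd79a) and 0 on the higher side, where 2.76% and 6.19% of all tested genes did not. On CFA6D against saline they did not overlap for 0 on the lower side and 1 on the higher side (Jchain), beside 5.62% and 8.88%, and on CFA6D against CFA3D for 0 on either side, beside 9.04% and 6.2%. With CFA6D replicate 6 left out, Cd79a and Ighm lay below and Jchain above saline (11.3% and 12.1% of all genes), and Ighm lay below and 0 genes above CFA3D (15.6% and 9.48%). Both comparisons with saline share the saline libraries and are therefore not independent of each other.

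**Figure D2:**
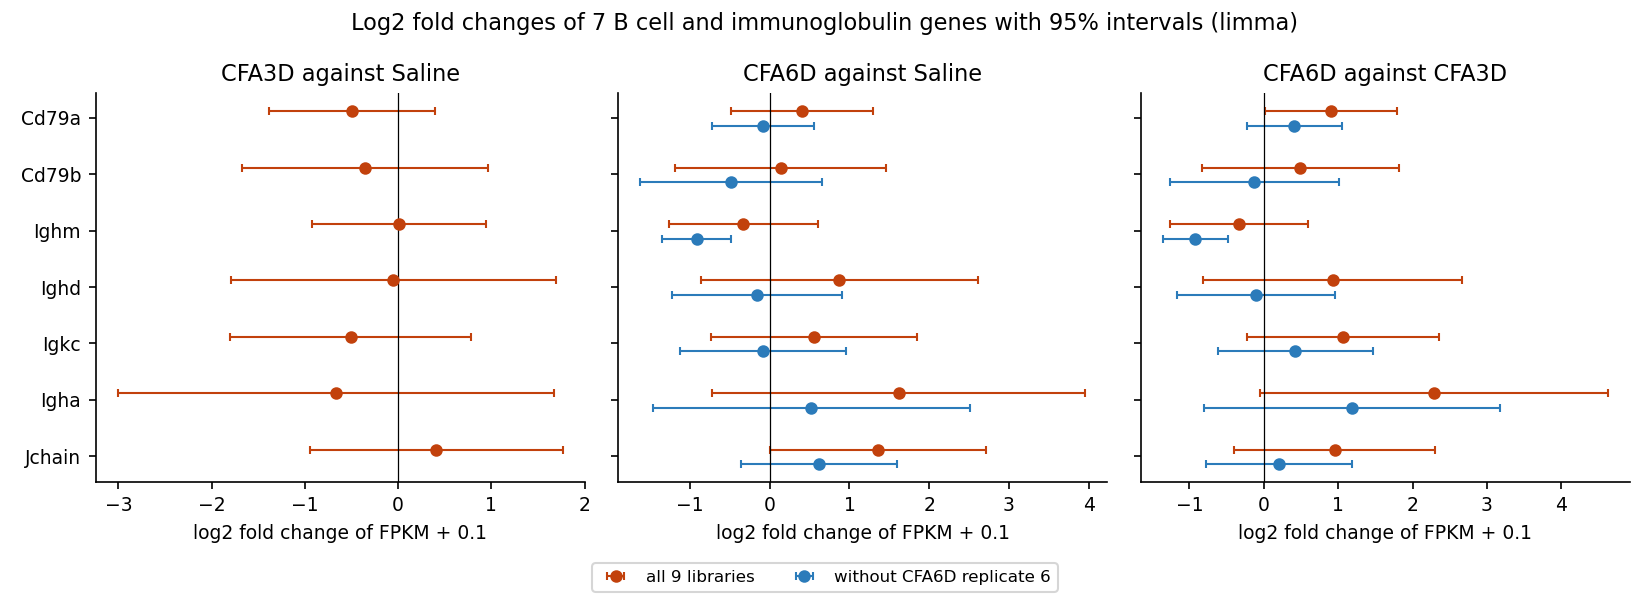
Log2 fold change of FPKM + 0.1 (horizontal axes) with the 95% interval from limma for the 7 tested genes, in the 3 comparisons. Orange points are fits of all 9 libraries and blue points are fits without CFA6D replicate 6. Leaving that library out moves every gene downwards in both comparisons with CFA6D, and the interval of Ighm then lies below 0.

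Cd79a (chromosome 7, 24897381 to 24902197 in GRCm38, plus strand), the alpha signalling chain, was 0.920, 0.930 and 1.02 FPKM in the saline libraries, 0.675, 0.440 and 0.910 FPKM in CFA3D and 0.885, 0.911 and 2.67 FPKM in CFA6D. All CFA3D libraries lay below all saline libraries, replicate 3 only just, and CFA6D replicates 4 and 5 also lay below them. The log2 fold change was -0.49 (SE 0.40, 95% interval -1.38 to 0.40) on CFA3D and 0.41 (SE 0.40, -0.48 to 1.30) on CFA6D against saline in limma. Against CFA3D it was 0.90 higher on CFA6D on the log2 scale, with an adjusted p = 0.732 in limma, and it missed the fold change minimum. That difference was 0.41 (-0.23 to 1.05) without CFA6D replicate 6, and it was called without CFA3D replicate 3 (1.12) and without CFA6D replicate 4 (1.16) or 5 (1.14).

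Cd79b (chromosome 11, 106311341 to 106314762, minus strand), the partner chain, was 0.450, 0.407 and 0.892 FPKM in saline, 0.200, 0.733 and 0.430 FPKM in CFA3D and 0.537, 0.240 and 1.60 FPKM in CFA6D. The 3 groups overlapped. Its log2 fold changes against saline were -0.35 (SE 0.59) on CFA3D and 0.14 (SE 0.59) on CFA6D, and the latter became -0.49 (SE 0.50) without CFA6D replicate 6. About 12 to 76 read pairs per library lay behind these values, against 25 to 148 for Cd79a, so small differences were not detectable at this depth.

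The Cd79a and Cd79b proteins work as a pair, and the ratio of their transcripts was compared. On the log2 scale, with 0.1 FPKM added to each, the ratio was 0.70 ± 0.45 (SD, n = 3) in saline, 0.56 ± 1.05 in CFA3D and 0.97 ± 0.52 in CFA6D. CFA6D replicate 6, with 0.70, lay in the middle of the 9 libraries, which ran from -0.62 to 1.57. In the 2-sided exact permutation test, in which 3 against 3 libraries cannot give a p below 0.1, the p-values of the 3 comparisons were 0.6 to 0.9. The differences of CFA6D were 0.27 from saline and 0.41 from CFA3D, and 0.40 and 0.54 without CFA6D replicate 6. Both chains were therefore higher in CFA6D replicate 6 at a ratio within the range of the other libraries.

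Ms4a1 (chromosome 19, 11249675 to 11266241, minus strand), the CD20 gene of mature B cells, was 0.0993, 0.0727 and 0.0858 FPKM in saline, 0.0659, 0.0337 and 0.0337 FPKM in CFA3D and 0.0370, 0.0467 and 0.408 FPKM in CFA6D. Only about 4 to 11 read pairs lay behind each value outside CFA6D replicate 6, which had about 46. The CFA3D libraries and CFA6D replicates 4 and 5 were below the saline libraries, but at so few reads no difference could be read from them.

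Ighm (chromosome 12, 113418558 to 113422730, minus strand), the IgM heavy chain, was the most even of the immunoglobulin genes outside CFA6D. It was 4.58, 4.82 and 4.55 FPKM in saline and 3.82, 6.06 and 4.39 FPKM in CFA3D, and 2.61, 2.23 and 8.42 FPKM in CFA6D. The CFA6D libraries thus lay on both sides of the others, with replicates 4 and 5 below all saline and CFA3D libraries and replicate 6 above them all. The log2 fold change was 0.0073 (SE 0.41) on CFA3D and -0.33 (SE 0.41) on CFA6D against saline, and -0.34 (SE 0.41) on CFA6D against CFA3D in limma. The last 2 became, without CFA6D replicate 6, -0.92 (95% interval -1.35 to -0.48) and -0.92 (-1.36 to -0.49), with unadjusted p-values under 0.05 (8.02% and 5.78% of all genes) and adjusted p-values of 0.346 and 0.626 in limma. Both differences were just under the fold change minimum.

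The forms of Ighm differed in their pattern over the libraries. The membrane form, Ighm-202, was 2.38, 2.79 and 2.50 FPKM in saline, 1.76, 2.76 and 2.55 FPKM in CFA3D and 1.35, 1.53 and 6.61 FPKM in CFA6D. The secreted form, Ighm-201, was 2.20, 2.03 and 2.06 FPKM in saline, 2.07, 3.31 and 1.84 FPKM in CFA3D and 1.26, 0.709 and 1.81 FPKM in CFA6D. All CFA6D libraries, replicate 6 included, therefore lay below all saline and all CFA3D libraries for the secreted form, replicate 6 only just below CFA3D replicate 3, whereas the membrane form was highest in replicate 6. Among transcripts tested, 5.52% lay below saline and 6.86% below CFA3D without overlap. The secreted form was 0.78 lower on CFA6D than in saline on the log2 scale (log2 fold change -0.78, SE 0.33, adjusted p = 0.724) and 0.92 lower than on CFA3D (log2 fold change -0.92, SE 0.33, adjusted p = 0.917) in limma over 74150 transcripts. Neither reached the fold change minimum with all libraries. Of the 10 tested transcripts of the 8 genes, 0 were called on CFA6D against CFA3D (2.26% of all transcripts), as on CFA3D against saline (2.18%). Igha-201 (2.77), Jchain-201 (1.41) and Igkc-201 (1.06) passed the fold change minimum on CFA6D against CFA3D but not the p cutoff. The membrane form of Ighm had log2 fold changes of -0.08 on CFA6D against saline and 0.06 against CFA3D. Without CFA6D replicate 6 the secreted form was called lower in both comparisons (-1.06 and -1.21, adjusted p-values of 0.680 and 0.853 in limma), with 2.97% and 2.7% of all transcripts called, and the membrane form had -0.79 and -0.65.

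The membrane form made up 52.0 to 57.9% of Ighm in saline, 45.5 to 58.0% in CFA3D, and 51.8%, 68.3% and 78.5% in CFA6D replicates 4, 5 and 6. CFA6D replicates 5 and 6 thus had the highest shares of the 9 libraries. The split is an estimate, since the forms share 1305 coding bases.

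Ighd (chromosome 12, 113406604 to 113416324, minus strand), the IgD heavy chain of mature naive B cells, was 0.155, 0.131 and 0.434 FPKM in saline, 0.352, 0.155 and 0.144 FPKM in CFA3D and 0.155, 0.214 and 2.32 FPKM in CFA6D. CFA6D replicate 6 was 5.34 times the second highest library, and the other 8 libraries overlapped. The log2 fold change against saline was -0.05 (SE 0.78) on CFA3D and 0.87 (SE 0.78) on CFA6D, and the latter became -0.16 (SE 0.47) without CFA6D replicate 6. The membrane form, Ighd-202, held 61.2 to 100% of the level in every library and 2.11 of the 2.32 FPKM in CFA6D replicate 6.

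IgM was far more abundant than IgD in every library. The plain ratio of Ighm to Ighd ran from 3.63 in CFA6D replicate 6, the lowest of the 9 libraries, to 39.0. On the log2 scale with 0.1 FPKM added, the ratio was 3.91 ± 0.69 (SD, n = 3) in saline, 3.97 ± 0.76 in CFA3D and 2.71 ± 0.81 in CFA6D, and the exact permutation p was 0.2 for CFA6D against each of the others. The differences of CFA6D were -1.20 from saline and -1.26 from CFA3D, and without CFA6D replicate 6 they shrank to -0.76 and -0.82, each with an exact permutation p of 0.4.

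Igha (chromosome 12, 113254830 to 113260236, minus strand), the IgA heavy chain, showed the largest ratio of CFA6D replicate 6 to the other libraries among the 8 genes. It was 1.04, 1.39 and 2.82 FPKM in saline, 0.168, 2.99 and 1.40 FPKM in CFA3D and 1.69, 3.26 and 23.8 FPKM in CFA6D. The value of CFA6D replicate 6 was 15.4 times the median of the other libraries, and CFA6D replicate 5 was the second highest. The log2 fold change was 1.62 (95% interval -0.72 to 3.96) on CFA6D against saline and 2.28 (95% interval -0.06 to 4.62, adjusted p = 0.732) against CFA3D in limma, which missed the call. Without CFA6D replicate 6 these were 0.52 (-1.47 to 2.51) and 1.19 (-0.80 to 3.18). The second was 1.28 without CFA3D replicate 1, the lowest library, and it was called without CFA3D replicate 2 (3.05) or CFA6D replicate 4 (3.06).

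The RNA of Igha was in the secreted form almost throughout. Igha-201 was listed at 23.8 FPKM in CFA6D replicate 6 against 0.0110 FPKM for the membrane form, Igha-202. The exception was CFA3D replicate 1, in which the secreted form was listed at 0 and the membrane form at 0.168 FPKM. Only about 18 read pairs lay behind Igha in that library. The same read pairs give a lower FPKM on the longer membrane transcript, so this gene sum depends on the split. IgA and IgM thus differed in form within CFA6D replicate 6, where the Ighm transcripts were mostly of the membrane form.

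**Figure D3:**
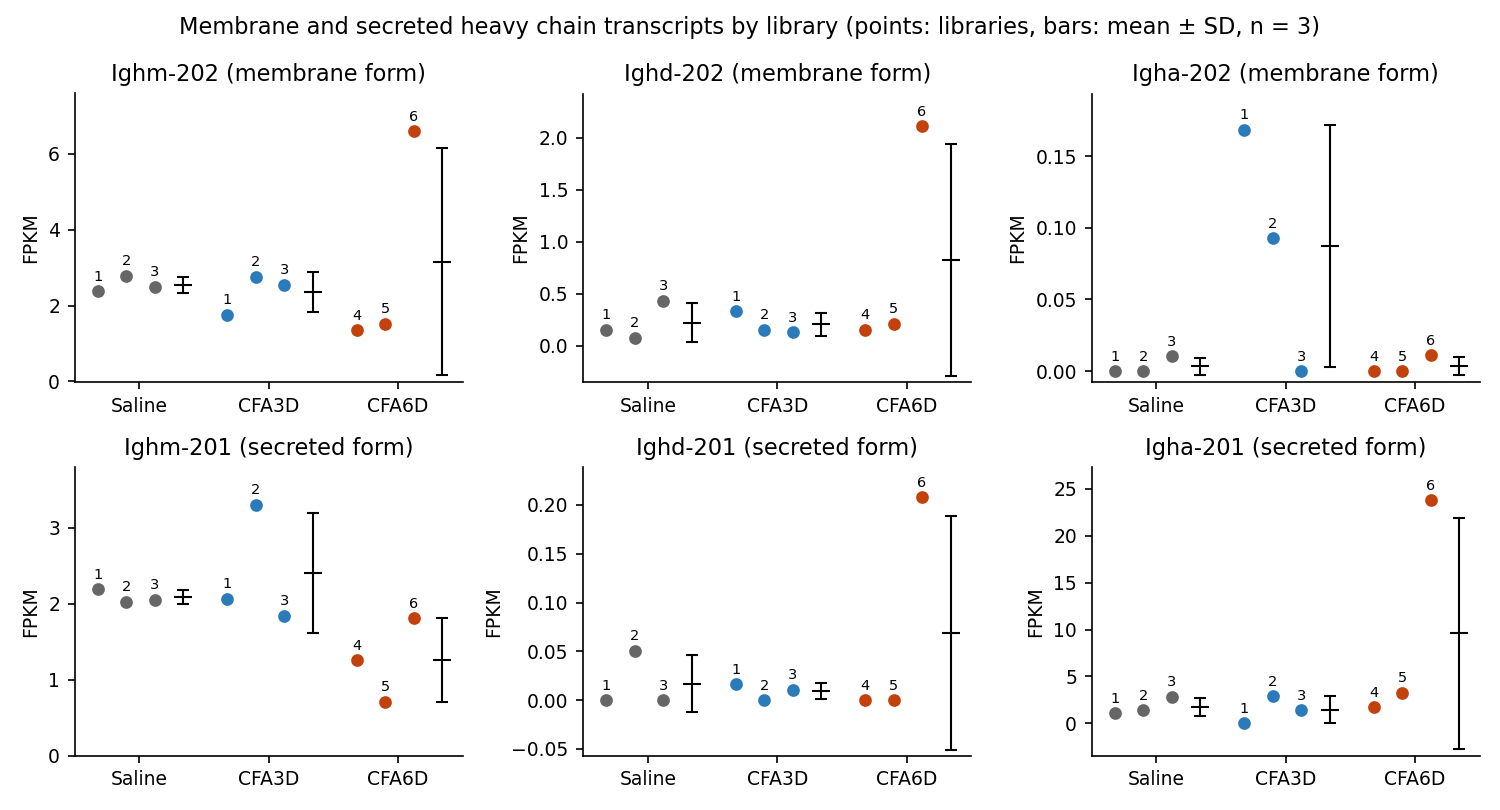
Levels of the membrane transcripts (upper row) and secreted transcripts (lower row) of Ighm, Ighd and Igha in FPKM (vertical axes, linear) in each library, numbered by replicate, with bars for the mean ± SD of 3 libraries. CFA6D replicate 6 is the highest point for the membrane forms of Ighm and Ighd and the secreted forms of Ighd and Igha, while for the secreted form of Ighm it lies at 1.81 FPKM with the 2 other CFA6D libraries below it.

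Jchain (chromosome 5, 88519809 to 88527891, minus strand), which joins IgM and IgA units, was 0.145, 0.237 and 0.260 FPKM in saline, 0.207, 0.622 and 0.215 FPKM in CFA3D and 0.344, 0.408 and 2.14 FPKM in CFA6D. All CFA6D libraries lay above all saline libraries. About 10 to 16 read pairs lay behind the saline values, 14 to 40 behind CFA3D, and 21, 26 and 120 behind CFA6D replicates 4, 5 and 6. The log2 fold change on CFA6D against saline was 1.36 (SE 0.60, 95% interval 0.0049 to 2.72, adjusted p = 0.517) in limma. It was 0.61 (-0.36 to 1.59) without CFA6D replicate 6 and the call was lost. It was also lost when any of the 3 saline libraries or CFA3D replicate 1 or 3 was left out, with log2 fold changes of 1.19 to 1.47. On CFA3D the log2 fold change was 0.41 (SE 0.60).

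The coding transcript, Jchain-201, had the same pattern. It was 0, 0.0299 and 0.210 FPKM in saline, 0.173, 0.463 and 0 FPKM in CFA3D, and 0.274, 0.275 and 1.96 FPKM in CFA6D. It was called higher on CFA6D than in saline in limma (log2 fold change 2.06, SE 0.85, adjusted p = 0.721), where 2.59% of all transcripts were called. Its log2 fold change was 1.24 (-0.55 to 3.03) without CFA6D replicate 6. The retained intron transcript Jchain-202 had -0.01 in the same comparison.

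Igkc (chromosome 6, 70726435 to 70726966, plus strand), the kappa constant gene that most mouse antibodies use, had the highest mean level of the 8 genes. It was 4.06, 11.05 and 12.3 FPKM in saline, 5.03, 8.72 and 4.32 FPKM in CFA3D and 6.58, 9.11 and 29.5 FPKM in CFA6D. The saline libraries differed among themselves by more than the groups did outside CFA6D replicate 6. The log2 fold change against saline was -0.51 (SE 0.58) on CFA3D and 0.55 (SE 0.58) on CFA6D, and against CFA3D it was 1.06 (95% interval -0.23 to 2.36) on CFA6D. Without CFA6D replicate 6 the latter 2 were -0.09 and 0.42, and without CFA6D replicate 4 the difference from CFA3D was called (1.50).

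The log2 ratio of Igkc to Ighm was 0.81 ± 0.86 (SD, n = 3) in saline, 0.29 ± 0.28 in CFA3D and 1.69 ± 0.35 in CFA6D. All 3 CFA6D libraries (1.30, 1.98 and 1.80 for replicates 4, 5 and 6) lay above all CFA3D libraries (0.39, 0.52 and -0.02). The difference of 1.40 between these groups gave the exact 2-sided permutation p of 0.1, the smallest that 3 against 3 libraries allow, and the difference from saline, 0.88, gave 0.2. This was 1 of 9 such ratio comparisons, with a Benjamini-Hochberg adjusted p of 0.45 over them. CFA6D replicate 6 was not the highest library for this ratio, and without it the differences were 1.35 from CFA3D and 0.83 from saline. The difference from saline was 0.39 without saline replicate 1.

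The 9 other immunoglobulin constant genes followed in part. Of them 6 passed the filter, 0 were called in any comparison, and 4 of the 6 were highest in CFA6D replicate 6. Ighg2c, of the IgG class, was the most abundant, with 2.06 to 4.16 FPKM and its highest level in saline replicate 2. Ighg2b was 1.79 FPKM in CFA6D replicate 6 and at most 0.468 FPKM elsewhere, whereas Ighg1 was highest in CFA6D replicate 5 (1.54 FPKM against 0.0815 FPKM in replicate 6). The lambda gene Iglc1 was 2.17 FPKM in CFA6D replicate 6 and 0.0609 to 1.70 FPKM elsewhere. The IgG genes, and likewise the lambda genes, resemble each other in sequence to differing degrees. Reads can be divided wrongly among the most similar of them, so single values are uncertain.

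Of the 20 genes of the B cell surface and of signalling below the receptor, 19 were tested and 0 were called in any comparison of all 9 libraries, while 16 of the 19 were highest in CFA6D replicate 6. The kinase genes Lyn and Syk were 10.8 and 9.82 FPKM there, against 2.67 to 4.37 FPKM and 1.23 to 2.38 FPKM in the other libraries. Plcg2, a phospholipase that acts after them, was 5.59 against 1.38 to 2.23 FPKM, and the tetraspanin gene Cd37 was 7.01 against 1.01 to 1.97 FPKM. Lyn, Syk and Plcg2 also act in myeloid cells. The median log2 fold change of the list was 0.35 on CFA6D against saline and -0.12 without CFA6D replicate 6. In the latter fit 1 of 17 tested genes, Cd180, was called lower (-1.27), where 1.09% of all tested genes were.

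The sums of the lists of B cell transcription factors, precursor genes and plasma cell genes in CFA6D replicate 6 lay within the range of the other libraries, although single genes did not. Of 10 transcription factor genes, 4 were highest in it (Pax5, Pou2af1, Spib and Ikzf3), at 2.50 to 6.81 times the median of the other libraries, and the summed level was 52.6 FPKM there against 44.3 to 52.9 FPKM in the others. The sum was led by Ebf1 with 17.1 to 22.7 FPKM and Tcf3 with 8.91 to 10.9 FPKM, early B lineage factors that other tissues also express, and Bach2 was 4.05 to 6.77 FPKM. Bcl6, a repressor of germinal centre B cells that is also found in other cells, was 8.72, 7.76 and 8.35 FPKM in CFA6D and 4.05 to 6.15 FPKM in the other 6 libraries, a log2 fold change of 0.62 against saline (SE 0.16, adjusted p = 0.260 in limma) that was under the fold change minimum. It was 0.61 without CFA6D replicate 6. Pax5, the factor that maintains B cell identity, was 0.460 FPKM in CFA6D replicate 6 and 0.0632 to 0.190 FPKM elsewhere, or 2.41 times the second highest library. Its log2 fold change on CFA6D was 0.65 against saline and 0.96 against CFA3D (adjusted p = 0.705 in limma), and 0.28 and 0.58 without that library.

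Of 12 plasma cell genes, 11 were tested, 2 were highest in CFA6D replicate 6 and 0 were called with all libraries. Xbp1, a factor of secretory cells, was 15.5, 18.4 and 21.1 FPKM in CFA6D and 20.2 to 32.4 FPKM elsewhere. Txndc5, Creld2 and Edem1, which serve protein folding and disposal in the endoplasmic reticulum, were 13.5 to 25.0, 5.62 to 9.69 and 4.38 to 7.87 FPKM over the libraries, with Edem1 highest in CFA6D replicate 6. Xbp1 and these genes had the highest means of the list, so its sum mainly follows them. Irf4, a factor of plasma cell differentiation, was called lower on CFA6D than in saline without CFA6D replicate 6 (-1.18). It was 1 of 11 tested genes of this list, beside 1.09% of all tested genes called lower. Of 10 precursor genes, 5 were tested. Cd24a, a surface protein that is also neural, made up most of the sum with 102 to 144 FPKM, and Lef1 and Il7r were 1.39 to 2.74 and 0.0381 to 0.396 FPKM. Vpreb1, a surrogate light chain gene, was the 1 precursor gene called. It was lower on CFA6D than in saline (-1.32, adjusted p = 0.477 in limma), where 0.541% of all tested genes were called lower. The call of Vpreb1 was lost without CFA6D replicate 6 (-1.39, adjusted p = 0.619 in limma). Its level was 0.643, 0.282 and 0.188 FPKM in saline and 0.174, 0 and 0.0904 FPKM in CFA6D. Among 12 genes of B cell attraction, survival and antibody transport, 9 were tested and 0 were called with all libraries. Fcgrt, the gene of the receptor that spares IgG from breakdown, was 17.3 to 44.4 FPKM, and Fcgr2b, which encodes an inhibitory IgG receptor, was 3.36 to 7.03 FPKM, both highest in CFA3D replicate 2. Cxcl12, a chemokine of the marrow stroma, was 16.0 FPKM in CFA6D replicate 6 and 4.56 to 9.41 FPKM elsewhere, and its receptor gene Cxcr4 was 12.1 against 3.69 to 6.38 FPKM.

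The lists of other cells stood beside these as follows. The neutrophil and marrow granule list had 10 of 14 genes called higher on CFA6D than on CFA3D, and 7 of 14 without CFA6D replicate 6, where 0.852% and 0.7% of all tested genes were called higher. Against saline, 2 of the 14 (S100a8 and Retnlg) were called higher on CFA6D and 0 without CFA6D replicate 6. Over all tested genes 0.797% and 0.629% were called higher. The median log2 fold change of the granule list was 1.92 and 0.52. S100a8 was 901 FPKM in CFA6D replicate 6, 45.0 and 40.0 FPKM in replicates 4 and 5 and 8.45 to 33.9 FPKM in the other groups. In CFA6D replicates 4 and 5, in which the summed B cell and immunoglobulin genes were 12.8 and 16.4 FPKM, the granule list was at 158 and 148 FPKM, against 63.2 to 143 FPKM in saline and 32.5 to 93.5 FPKM in CFA3D, so that replicate 5 lay close to the highest saline library. The T cell list had 1 of 14 genes called with all libraries, Trbc1. It was higher on CFA3D than in saline (1.24, adjusted p = 0.999 in limma), beside 0.453% of all tested genes. Cd3g was called lower, without CFA6D replicate 6, on CFA6D than in saline (-1.52) and than on CFA3D (-1.45). The shares of all tested genes called lower were 1.09% and 0.873%. The macrophage and MHC class II list summed to 189 FPKM in CFA6D replicate 6 and 140 to 356 FPKM elsewhere. Of its 12 genes, 0 were called with all libraries. Without CFA6D replicate 6, Cx3cr1 was called lower on CFA6D than on CFA3D (-1.26), as were 0.873% of all tested genes.

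**Figure D4:**
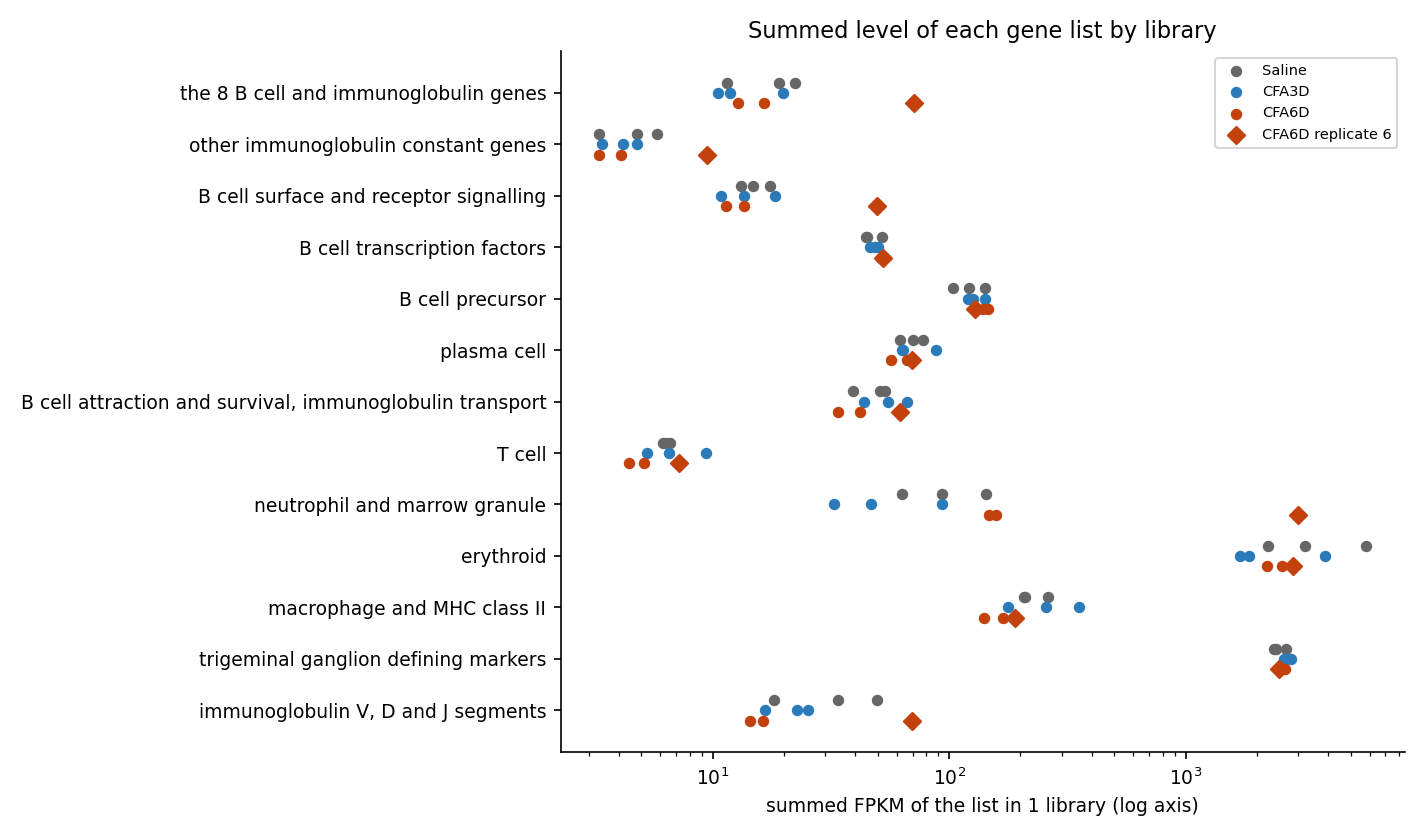
Summed level in FPKM (horizontal axis, log scale) of the 8 genes and of 12 further gene lists, with 1 point per library. Diamonds mark CFA6D replicate 6, which lies at 70.9 FPKM for the 8 genes and at 2990 FPKM for the neutrophil and marrow granule list, and within the range of the other libraries for the T cell, plasma cell, macrophage and trigeminal ganglion lists.

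The variable, diversity and joining segments, which are joined to the constant genes when a B cell makes its receptor, gave a second view of the same transcripts. Of 251 annotated segments, 80 were at 0 in all libraries and 60 passed the filter. Of 218 V segments, 119 were above 0 in CFA6D replicate 6, against 37 to 64 in the other 8 libraries. Of these, 27 were above 0 in that library alone, where no other library had more than 3. The summed V segments were 60.4 FPKM in CFA6D replicate 6, 13.0 and 14.7 FPKM in CFA6D replicates 4 and 5, 12.6, 45.0 and 31.97 FPKM in saline and 19.0, 22.0 and 13.6 FPKM in CFA3D. Saline replicate 2 came next to CFA6D replicate 6 in this sum although Igkc was higher in saline replicate 3 than in it.

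No segment dominated in CFA6D replicate 6. Its most abundant V segment, Ighv5-6, held 10.9% of the V segment sum, and the leading segment held 9.45 to 25.2% in the other libraries. The 113 heavy chain V segments summed to 34.6 FPKM there with 65 above 0, and the 100 kappa V segments to 23.2 FPKM with 51 above 0. The 14 J segments summed to 9.24 FPKM there and 1.34 to 5.55 FPKM elsewhere.

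Of the 60 tested segments, 1 was called higher and 3 lower on CFA3D than in saline, beside 0.453% and 0.491% of all tested genes. On CFA6D, 4 were called higher and 3 lower than in saline, beside 0.797% and 0.541%, and 4 higher and 1 lower than on CFA3D, beside 0.852% and 0.495%. When CFA6D replicate 6 was left out, 48 segments were tested, of which 2 were called higher and 10 lower than in saline, beside 0.629% and 1.09%, and 2 higher and 5 lower than on CFA3D, beside 0.7% and 0.873%. Those called with all libraries included Iglv1, a lambda segment with 1.61, 5.25 and 5.04 FPKM in saline and 1.05, 0.665 and 1.81 FPKM in CFA6D. Ighv8-8 was 0.319, 0.434 and 0.407 FPKM in saline and at most 0.0707 FPKM in the other 6 libraries. Ighv1-64 was listed at 0 in all CFA3D libraries, at 0.156 to 0.241 FPKM in saline and at 0.439, 1.68 and 0.582 FPKM in CFA6D. The smallest adjusted p among these calls was 0.126, for Ighv1-64 in CFA6D against CFA3D. V segments resemble each other in sequence, and a segment passes the filter through the libraries in which it is high, so nothing beyond the listed values can be read from single segments.

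**Figure D5:**
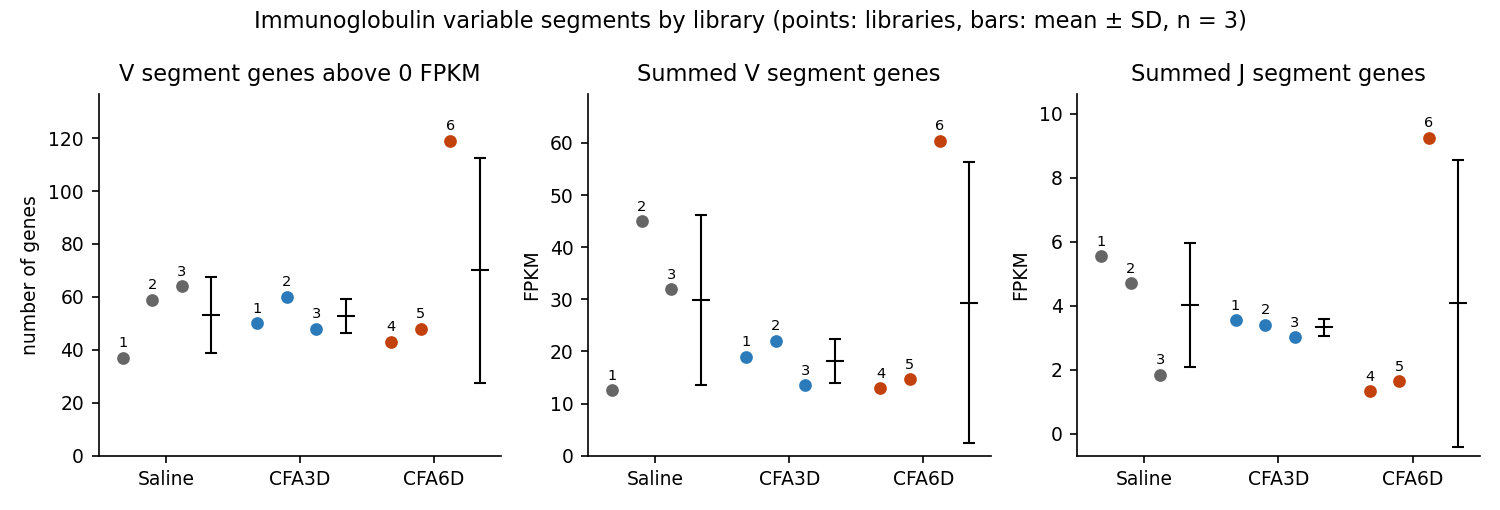
Number of V segments above 0 FPKM, summed V segments in FPKM and summed J segments in FPKM (vertical axes, linear) in each library, numbered by replicate, with bars for the mean ± SD of 3 libraries. CFA6D replicate 6 has 119 V segments above 0, against 37 to 64 in the others, and the highest sums of V and J segments.

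The 5 genes whose log2 levels followed the mean z-score of the 7 tested genes most closely over the 9 libraries were Klf1, Apbb1ip, Kif20b, Spag5 and Mbnl3, with Pearson's r of 0.97 to 0.98. Klf1 is a factor of red cell precursors, Kif20b and Spag5 act in cell division, and Apbb1ip is an adaptor of blood cell adhesion. Each of them was highest in CFA6D replicate 6, as Klf1 with 1.64 FPKM against 0.0853 to 0.305 FPKM elsewhere. Without that library the r of the 5 genes with the z-score was 0.85 to 0.91 over 8 libraries. They were picked from all genes for this likeness, so the values are a description.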

How the data were processed

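RNA of the TG of mice was sequenced in 9 libraries by the authors, from rRNA-depleted, strand-specific libraries. Per the study's methods, reads were trimmed with Trimmomatic 0.32 and expression was quantified in CLC Genomics Workbench 7.0.2 against GRCm38. The submitters' processing notes name Bowtie 0.12.2 and mm8 instead, and neither source says how FPKM was computed. The authors deposited FPKM per transcript in 3 tables by RNA class, of which that of lncRNA was not used here. Transcript names matched GENCODE release 21 for 101539 of 102122 mRNA rows and 24532 of 24718 other noncoding rows. All sample columns were mapped to samples by their names, and 0 were left out. The mRNA table held 4 of the 8 genes and the other noncoding table the other 4. The value of 1 read pair differed by at most 0.0019% between the tables, so they were joined. The genes and lists were chosen with earlier results of these data known, and a few genes of the marker lists are not reported here.

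Gene sums of FPKM, and transcripts, were kept where their mean reached 0.1 FPKM and were tested on the scale of log2(FPKM + 0.1). The tool was limma 3.58.1 in R 4.3.3 (3 groups, empirical Bayes with a trend, 9 libraries, no covariate). Fold changes on this scale understate those of low genes. Calls were made where the unadjusted p was under 0.05 and the log2 fold change reached 1 in either direction, and p-values were adjusted by Benjamini-Hochberg over all features tested. Ratios were tested by exact permutation in scipy 1.17.1. Each fit was repeated without CFA6D replicate 6. Per list, the 4 genes with the highest mean and every called gene were named, along with the 5 genes most alike, and other names were chosen after their values were seen. Nothing in the labels says that pools came from separate litters or days, so p-values measure the spread between pools. Coding ends of the heavy chain forms were read from GRCm38 with the GENCODE annotation. The alternatives tried were other pseudocounts and filters, quantile normalization, fits of 2 groups or 1 table, the main transcript of each gene, no fold change minimum, a replicate block and leaving out each library.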

Additional observations from a re-analysis of the deposited data

Results flagged for a closer look

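In CFA6D against CFA3D, the values below passed a test of the difference between the time points at an unadjusted p under 0.05 in limma, and none had an adjusted p under 0.05. Among the B cell genes it was Cd79a, with a log2 fold change of 0.90, and the secreted transcript Ighm-201, with -0.92. Among the immunoglobulin segments, Ighv1-52 (1.59), Ighv1-64 (3.12), Igkv1-110 (2.26) and Igkv13-85 (2.09) were higher and Igkv8-30 (-1.81) was lower. Among the neutrophil and marrow granule genes, Camp (2.69), Cd177 (2.31), Ltf (2.65), Mmp8 (2.88), Mmp9 (2.48), Mpo (2.80), Ngp (3.02), Retnlg (2.83), S100a8 (3.16) and S100a9 (3.32) were higher, as was Slc4a1 (2.03) of the erythroid genes. CFA6D replicate 6 was the highest library for Cd79a and for each of the granule genes and Slc4a1, and without it Camp, Mmp8, Mmp9, Ngp, Retnlg, S100a8, S100a9, Ighv1-64, Igkv13-85, Igkv8-30 and Ighm-201 were called in the same direction.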

How the results depend on the processing

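Counts of called genes are given in the order CFA3D against saline, CFA6D against saline and CFA6D against CFA3D. Over all genes they were 225, 319 and 321. They were 11, 30 and 47 with 1 FPKM added, 27, 60 and 79 with a filter of 1 FPKM, and 1050, 2296 and 1616 with no fold change minimum. Leaving out 1 library gave 232 to 351, 305 to 509 and 311 to 505.

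On CFA6D against saline, the 1 called gene of the 8, Jchain, was lost (0 called) with 1 FPKM added, with no filter and with only the 2 groups in the fit. A filter of 1 FPKM removed Jchain, with a mean of 0.509 FPKM, before any test, so 0 were called there too. Leaving out 1 library gave 0 to 1. The 1 called transcript, Jchain-201, was lost (0 called) with 0.01 or 1 FPKM added. The filter of 1 FPKM removed Jchain-201, with a mean of 0.377 FPKM, before any test. With no fold change minimum 2 were called (Jchain-201 higher and Ighm-201 lower), and leaving out 1 library gave 0 to 1. Without CFA6D replicate 6 the 1 called was Ighm-201, lower, and Jchain-201 was not called. On CFA6D against CFA3D, 0 genes were called, but 1 was with quantile normalization (Igha, 2.32) and 1 with no fold change minimum (Cd79a). Leaving out 1 library gave 0 to 3 genes there, and 3 without CFA6D replicate 4. For transcripts it was 1 with no fold change minimum and 0 to 3 when 1 library was left out. On CFA3D against saline, 0 genes and 0 transcripts of the 8 were called under each alternative.

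Signs turned for some differences, not all of them small. Ighd on CFA6D against CFA3D was 0.93 with all libraries and -0.11 without CFA6D replicate 6. Quantile normalization gave Ighm -0.028 on CFA3D against saline. The main transcript in place of the sum gave Ighd 0.029 and Ighm -0.13 on CFA3D against saline, Cd79b -0.18 on CFA6D against saline and Ighm 0.057 on CFA6D against CFA3D. When 1 library was left out, log2 fold changes on CFA3D against saline ran from -0.18 to 0.15 for Ighm, -0.34 to 0.33 for Ighd, -0.71 to 0.028 for Cd79b and -1.43 to 0.34 for Igha. On CFA6D against saline they ran from -0.082 to 0.66 for Cd79a, -0.49 to 0.68 for Cd79b, -0.16 to 1.47 for Ighd, -0.086 to 0.99 for Igkc and -0.92 to 0.018 for Ighm. On CFA6D against CFA3D they ran from -0.13 to 1.03 for Cd79b, -0.11 to 1.52 for Ighd and -0.92 to 0.010 for Ighm. The log2 ratio of Cd79a to Cd79b ran from -0.54 to 0.45, -0.030 to 0.44 and -0.18 to 0.81 in the 3 comparisons, and that of Ighm to Ighd from -0.34 to 0.48 on CFA3D against saline. Without turning sign, the latter ran from -1.60 to -0.76 on CFA6D against saline and -1.69 to -0.82 against CFA3D, and that of Igkc to Ighm from 0.39 to 1.19 and 1.24 to 1.59. The cause of these changes was not tested beyond the library left out. Under the alternatives other than leaving out a library, 195 values kept their direction and side of the threshold, 5 turned sign, 3 lost a call and 2 gained one.

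Saline and CFA3D libraries share the replicate numbers 1 to 3, and with the replicate number as a block 317 genes and 0 of the 7 tested genes were called. Same-numbered libraries did not deviate together (r of 0.060, -0.045 and 0.047), and not every library correlated best with its own number, so the number was not taken as a pairing. CFA6D shares no number with the other groups. Genes with under about 20 read pairs in most libraries, such as Ms4a1, Ighd and Jchain, are limited by depth.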
